A study of Mus musculus with 6 samples.

Results

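The mitochondrial genome of the mouse holds 37 annotated genes, and they are the subject here. They were taken from the gene table as every gene placed on the mitochondrial chromosome, 37 of 52636 genes in all. They comprise 13 protein genes, 2 ribosomal RNA (rRNA) genes and 22 transfer RNA (tRNA) genes, of which 28 lie on the plus strand of the reference and 9 on the minus strand. Expression came from ribosomal-RNA-depleted total RNA of mouse optic nerve in 6 libraries, 3 in a group called hND6 and 3 in a group called mCherry. The treatment label of the hND6 group is mutant human ND6T14484C, and that of the mCherry group is mCherry, a red fluorescent protein. Per the labels' protocols, a lentivirus with mutant human ND6 was injected into the eye. This text stands beside both groups, so what the mCherry eyes received is known only from the group name. Strain, age, sex, the promoter of the virus and whether a library is 1 animal are not given in the sources used here. The p-values therefore reflect only how these libraries spread, and part of that spread may be technical.

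Mitochondrial DNA is a small circle that encodes core subunits of the respiratory chain, together with the rRNAs and tRNAs needed to translate them inside the organelle. Both strands are transcribed into long precursors, which are cut into separate RNAs, largely at the tRNAs that lie between the other genes. The plus-strand genes are copied from the heavy strand, and ND6 is the only protein gene copied from the light strand. ND6 is a membrane subunit of complex I, and changes in human ND6 are among the known causes of Leber hereditary optic neuropathy, in which retinal ganglion cells and their axons are lost. The comparison asks how the mouse's own mitochondrial transcripts differ between optic nerves of the hND6 and mCherry groups. Reads of the delivered human gene were not analysed here, and whether any were counted under the mouse gene mt-Nd6 was not tested.

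Levels are FPKM, fragments scaled to exon length and to library size, and whole reads were recovered from them. Reads assigned to all genes ran from 20253637 to 34057682 in hND6 libraries and from 25718356 to 34758873 in mCherry libraries. The summed level of 10 myelin and oligodendrocyte markers ran from 7466 to 8706 FPKM in hND6 libraries and from 5281 to 7905 FPKM in mCherry libraries, overlapping. For 8 astrocyte markers it ran from 2146 to 2550 FPKM in hND6 and from 1560 to 2075 FPKM in mCherry, without overlap. Of the 2 defining ones, Gfap ran from 1276 to 1619 FPKM in hND6 and from 907 to 1245 FPKM in mCherry. Aqp4 overlapped, at 80.9 to 92.2 FPKM in hND6 and 59.3 to 98.2 FPKM in mCherry. All markers of both lists averaged at least 0.5 FPKM. The part of the difference in the astrocyte sum in the results on mitochondrial genes was not tested. The libraries differed in RNA of other cells. All 8 neuron markers on the list averaged at least 0.5 FPKM, and their summed level was 472 FPKM in mCherry 3 and 179 FPKM in hND6 1, against 21.1 to 39.8 FPKM in the other 4 libraries. All 8 photoreceptor markers did so too, with a summed level of 201 FPKM in hND6 2 and at most 6.39 FPKM elsewhere; of the defining ones Pde6b was at 0 in hND6 3 and mCherry 2. For red blood cell markers (7 of 8 at that level) the sum ran from 1390 to 2624 FPKM in hND6 and from 192 to 489 FPKM in mCherry. For markers of B and plasma cells (5 of 8) it ran from 52.8 to 162 FPKM in hND6 and from 7.15 to 17.2 FPKM in mCherry. For skeletal muscle markers (2 of 8) it ran from 2.15 to 2.89 FPKM in hND6 and from 2.16 to 4.93 FPKM in mCherry, and the defining marker Ckm was at 0 in every hND6 library. In bulk RNA, more mitochondria-rich cells, more mitochondria per cell and more RNA per mitochondrion cannot be told apart.

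The mitochondrial genes took up about 1 read in every 100. Their share of assigned reads was 1.33%, 1.37% and 1.07% in hND6 1, 2 and 3, against 0.971%, 0.717% and 1.32% in mCherry 1, 2 and 3. Exact 95% binomial (Clopper-Pearson) intervals, which cover counting error only, were at most 0.00507 percentage points to either side. The groups overlapped, because mCherry 3 lay with the hND6 libraries and above hND6 3. The mean was 1.26 ± 0.167% in hND6 and 1.002 ± 0.301% in mCherry (SD, n = 3 each), a difference smaller than the spread in mCherry. Of 1851013 mitochondrial reads over the 6 libraries, 1830081 fell on protein genes, 19602 on rRNA genes and 1330 on tRNA genes. By strand, 1832326 fell on plus-strand genes and 18687 on minus-strand genes, of which mt-Nd6 held 17823. Minus-strand genes took 1.05%, 1.04% and 1.16% of mitochondrial reads in hND6 libraries, against 0.815%, 0.916% and 1.07% in mCherry libraries. These shares overlapped as well, again through mCherry 3. The widest of their exact 95% intervals, that of hND6 3, ran from 1.115% to 1.202%.

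The strands also differ in the letters of their transcripts. The 12 plus-strand protein transcripts together are 11.5% G and 26.0% C, whereas the mt-Nd6 transcript is 28.1% G and 5.97% C. The 8 minus-strand tRNAs are 22.8% G and 13.7% C, and the 14 plus-strand tRNAs are 15.3% G and 17.5% C. All 37 genes had the same coordinates, strand and length in the GENCODE M21 annotation of GRCm38, whose transcript sequences were used for this and for every sequence printed here.

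Along the genome, protein genes fell into an abundant set and a contiguous stretch with almost no reads. The plot of levels along the mitochondrial genome shows this for every library. The 6 protein genes from mt-Co2 to mt-Nd4l, which lie next to each other between positions 7013 and 10173, averaged 0 to 0.689 FPKM and held 117 reads in all 6 libraries together. They are mt-Co2 and mt-Co3, subunits of complex IV, mt-Atp6 and mt-Atp8 of ATP synthase, and mt-Nd3 and mt-Nd4l of complex I. No protein gene with higher values lies inside the stretch. The other 7 protein genes averaged 215 to 3414 FPKM. mt-Atp8 is listed at 0 in all 6 libraries, and mt-Nd4l at 0 in 4 of them with 1 read each in hND6 1 and mCherry 3. mt-Co2 had 6, 5 and 4 reads in hND6 libraries, against 4, 3 and 6 reads in mCherry libraries. These are transcripts that every respiring cell uses, so values at or near 0 are given as listed and not as absence of the RNA.

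**Figure D1:**
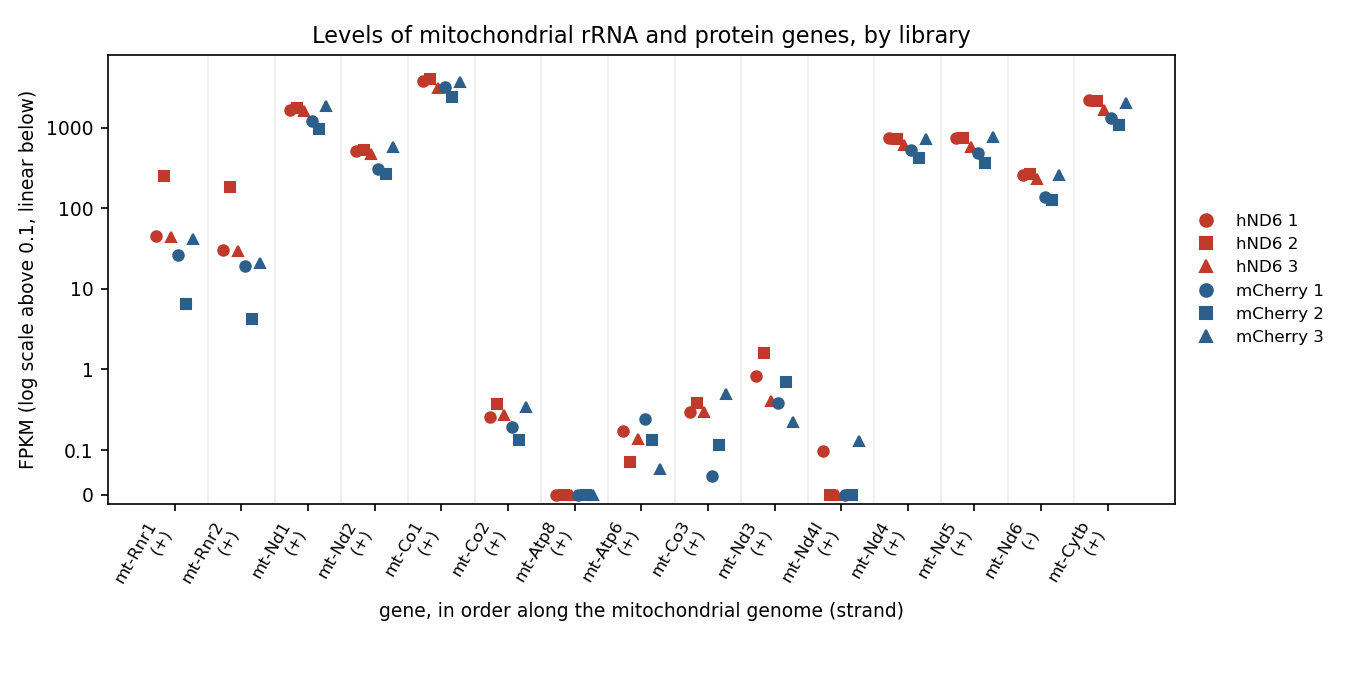
Level of each mitochondrial rRNA and protein gene in every library, with genes in their order along the genome (strand in brackets) on the x axis and FPKM on the y axis, on a log scale above 0.1 and linear below. Points are single libraries, hND6 in red and mCherry in blue; 6 neighbouring protein genes from mt-Co2 to mt-Nd4l lie at or below 1.598 FPKM, and the other 7 protein genes at or above 128 FPKM.

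The near-empty stretch coincides with nuclear copies of mitochondrial DNA. A BLAST search of the 37 genes against 141730 nuclear transcripts found matches of at least 99% identity for 8 genes, in 7 unprocessed pseudogenes on chromosome 1 (24611535 to 24616197, minus strand). The copies are ordered and spaced there as on the mitochondrial genome, to within 1 base. They cover 99.6% of mt-Co2, 99.6% of mt-Atp6, 99.9% of mt-Co3, 99.1% of mt-Nd3 and 98.99% of mt-Nd4l. For mt-Atp8, 43 of 204 bases are covered by a transcript of the reference. Only annotated transcripts were searched. By the same spacing, its other bases would fall between the copies of mt-Co2 and mt-Atp6, a gap that was not compared. The stretch runs on into both neighbours, covering 31.3% of mt-Co1, its last 483 bases, and 63.6% of mt-Nd4, its first 876 bases. The nuclear copies themselves stood between 0 and 2.13 FPKM over all 6 libraries. How the authors handled reads that match more than 1 place was not given in the sources used here. Its part in these values was not tested.

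The sequences of a pair of genes show how close such copies are. They give 120 bases at the start of the aligned part of mt-Co2 and of mt-Nd2, each with its nuclear copy, 5′ to 3′ on the transcript's strand, with capitals at bases that differ within a pair. mt-Co2 is at chrMT:7013-7132 (plus strand) and Gm28661 at chr1:24615446-24615565 (minus strand). mt-Nd2 is shown at chrMT:4442-4561 (plus strand) and Gm13339 at chr2:22590414-22590533 (minus strand), all on GRCm38.
mt-Co2: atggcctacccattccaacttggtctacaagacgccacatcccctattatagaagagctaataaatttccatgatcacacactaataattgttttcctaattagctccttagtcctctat
Gm28661: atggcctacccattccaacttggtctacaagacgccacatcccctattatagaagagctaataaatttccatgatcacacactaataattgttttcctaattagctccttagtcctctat
mt-Nd2: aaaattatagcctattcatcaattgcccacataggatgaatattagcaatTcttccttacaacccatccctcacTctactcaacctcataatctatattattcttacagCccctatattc
Gm13339: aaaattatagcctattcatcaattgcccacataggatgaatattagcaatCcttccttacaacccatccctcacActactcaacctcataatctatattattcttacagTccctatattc
The mt-Co2 window has no difference from its copy, and over 681 aligned bases identity was 100%. The mt-Nd2 window differs at 3 of 120 bases, and over 510 aligned bases identity was 96.7%. These matches cover 99.6% of mt-Co2 and 49.1% of mt-Nd2, so the pairs differ in coverage as well as in identity. mt-Co2 averaged 0.261 FPKM over the 6 libraries and mt-Nd2 averaged 445 FPKM. The part of coverage and of identity in these levels was not tested.

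**Figure D2:**
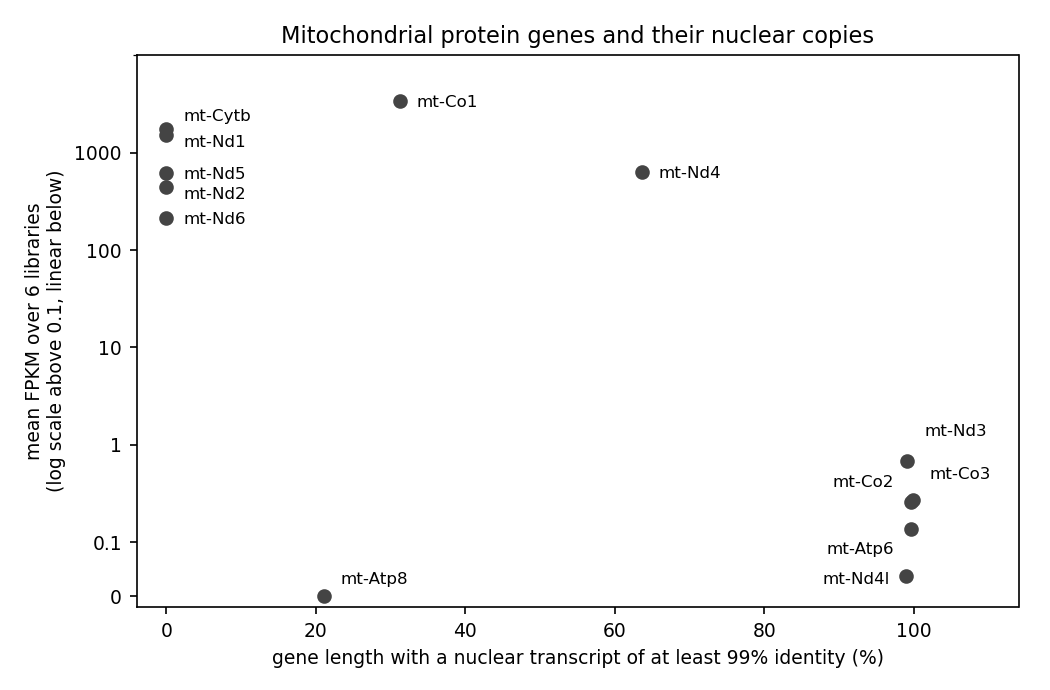
Mean FPKM over the 6 libraries (y axis, log scale above 0.1 and linear below) of the 13 mitochondrial protein genes against the percent of each gene's length matched by a nuclear transcript of at least 99% identity (x axis). The 5 genes matched over 98.99% or more of their length lie below 1 FPKM, and so does mt-Atp8 at 21.1%, while mt-Co1 at 31.3% and mt-Nd4 at 63.6% average 3414 and 634 FPKM.

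Among the 7 abundant protein genes, the order of levels per length was nearly fixed. In every library it ran from mt-Co1, the catalytic subunit of complex IV, through mt-Cytb of complex III and mt-Nd1 of complex I, and ended with mt-Nd2 and then mt-Nd6. mt-Nd4 and mt-Nd5, both complex I, lay between mt-Nd1 and mt-Nd2 and changed places, with mt-Nd5 above mt-Nd4 in hND6 2 and mCherry 3. Their means over the 6 libraries were 634 FPKM for mt-Nd4 and 617 FPKM for mt-Nd5, closer together than the spread between libraries. These values divide by the full gene length. Were no read counted over the near-identical bases, mt-Nd4 would average 1739 FPKM over its other 502 bases and mt-Co1 4967 FPKM over its other 1062 bases. mt-Nd4 would then lie beside mt-Cytb at 1748 FPKM and above mt-Nd5, so its place in the order depends on that reading.

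Between the groups, all 7 abundant protein genes had higher mean levels in hND6, and in all 7 the groups overlapped. Under quantile normalisation mt-Co1, mt-Nd1 and mt-Nd4 lay lower in hND6 instead. mt-Co1 (5328 to 6872) stood at 3864, 4038 and 3164 FPKM in hND6 libraries, against 3227, 2425 and 3769 FPKM in mCherry libraries. mt-Cytb (14145 to 15288) stood at 2195, 2170 and 1686 FPKM in hND6 libraries, against 1341, 1075 and 2018 FPKM in mCherry libraries. In both genes mCherry 3 lay above hND6 3, and for mt-Co1 mCherry 1 did too, so the groups overlapped. mt-Nd1 (2751 to 3707) stood at 1685, 1788 and 1642 FPKM in hND6 libraries, against 1208, 973 and 1870 FPKM in mCherry libraries. mt-Nd2 (3914 to 4951) stood at 516, 534 and 473 FPKM in hND6 libraries, against 308, 266 and 572 FPKM in mCherry libraries. For these 2 complex I genes mCherry 3 was the highest library of all. mt-Nd4 (10167 to 11544) stood at 751, 738 and 613 FPKM in hND6 libraries, against 538, 424 and 738 FPKM in mCherry libraries. mt-Nd5 (11742 to 13565) stood at 740, 758 and 580 FPKM in hND6 libraries, against 483, 366 and 777 FPKM in mCherry libraries. mCherry 2 was the lowest library for 7 of the 7 genes, mCherry 1 the next lowest for 6, and mCherry 3 the highest for 3. The library with the most neuron RNA, mCherry 3, thus had mitochondrial protein transcripts at hND6 levels, and the part of neuron RNA in this was not tested.

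Across all genes, limma on log2(FPKM + 0.5) covered 16157 genes, those averaging 0.5 FPKM or more. It called 7 higher in hND6 (0.0433%) and 0 lower (0%; smallest adjusted p over all genes 0.00746, with 2450 genes, 15.2%, at an unadjusted p under 0.05). Of the 37 mitochondrial genes 17 were tested: 8 protein, 2 rRNA and 7 tRNA genes. None of the 17 passed (limma adjusted p from 0.328 to 0.978); 1, mt-Rnr2, was at an unadjusted p under 0.05, and voom, limma's test for reads, called none of them and no gene in either direction. The 17 had a median log2 fold change of 0.46, with 15 higher and 2 lower, beside -0.01 for all genes tested, of which 7848 lay higher. mt-Nd3 passed the filter through its hND6 values alone. For the 7 abundant protein genes the median was 0.41, from 0.25 ± 0.33 for mt-Co1 to 0.59 ± 0.27 for mt-Nd6 (SE). Without mCherry 2 that median was 0.18, with mt-Co1 at 0.073, and without mCherry 3 it was 0.71. Under quantile normalisation the median of the 7 was 0.02. Scaling to a constant sum (TPM scale) moved the median of all genes to -0.14 and that of the 17 to 0.32.

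**Figure D3:**
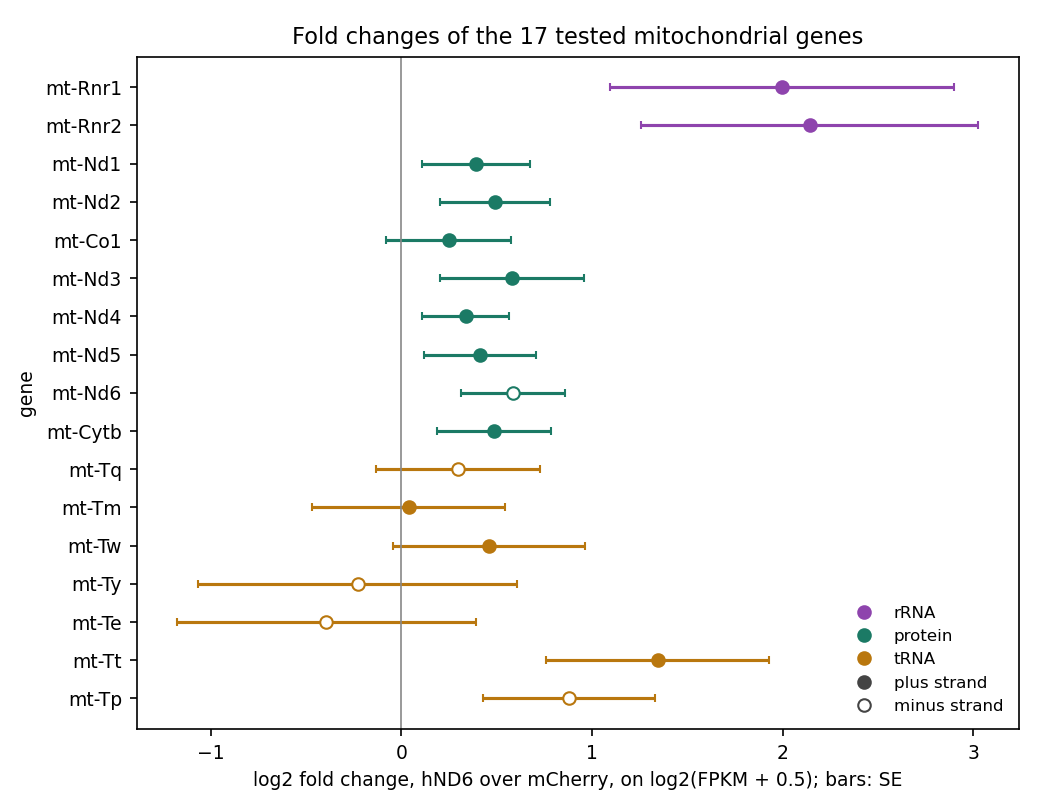
Log2 fold change of hND6 over mCherry on log2(FPKM + 0.5) (x axis) for the 17 tested mitochondrial genes (y axis), by class (colour) and strand (filled, plus; open, minus), with bars of 1 SE from limma. The rRNA genes lie farthest right at 1.99 and 2.14 and none of the 17 passed; mt-Co1, mt-Nd1 and mt-Nd4 lay below 0 under quantile normalisation.

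mt-Nd6, the mouse counterpart of the delivered gene (13552 to 14070, minus strand), stood at 260, 266 and 231 FPKM in hND6 libraries, against 141, 128 and 261 FPKM in mCherry libraries. The hND6 values were close together, and mCherry 3 lay among them. The log2 fold change was 0.59 ± 0.27 (SE; limma adjusted p = 0.367, unadjusted 0.0714). Leaving out mCherry 3 gave 0.91 and an adjusted p of 0.0437, leaving out mCherry 2 gave 0.39 and an adjusted p of 0.587, and leaving out hND6 2 with mCherry 3 gave 0.87 and an adjusted p of 0.228. Over the 18 alternatives the adjusted p of mt-Nd6 ran from 0.0437 to 1, and its fold change was positive in 18.

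Ratios within a library cancel its share of mitochondrial RNA, so mt-Nd6 was also set against its neighbours on the other strand. The last bases of mt-Nd6 and mt-Nd5 overlap on opposite strands over 14 bases (13552 to 13565), shown in capitals at the end of each 60-base stretch. Each is written 5′ to 3′ on its own strand, mt-Nd6 at chrMT:13552-13611 (minus) and mt-Nd5 at chrMT:13506-13565 (plus).
mt-Nd6: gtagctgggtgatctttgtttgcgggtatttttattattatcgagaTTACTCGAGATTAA
mt-Nd5: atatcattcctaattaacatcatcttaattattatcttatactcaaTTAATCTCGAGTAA
The kit keeps strand, but the strand setting used for counting was not given in the sources used here. The FPKM ratio of mt-Nd6 to mt-Nd5 was 0.352, 0.351 and 0.398 in hND6 libraries, against 0.291, 0.350 and 0.336 in mCherry libraries. Every hND6 ratio lay above every mCherry ratio, the closest pair being hND6 2 and mCherry 2. The means were 0.367 ± 0.0270 in hND6 and 0.326 ± 0.0309 in mCherry (SD, n = 3 each; exact two-sided permutation p = 0.1, the smallest that 3 against 3 allows). Adjusted over the 3 ratios tested, p was 0.3. Against mt-Cytb, the nearest protein gene on the other side, the ratio was 0.118, 0.123 and 0.137 in hND6 libraries, against 0.105, 0.119 and 0.130 in mCherry libraries. Those groups overlapped (exact two-sided permutation p = 0.5, adjusted 0.5). The log2 difference was 0.17 for mt-Nd6 to mt-Nd5 and 0.10 for mt-Nd6 to mt-Cytb, beside 0.59 for the level of mt-Nd6 itself. Without mCherry 1 the ratio differences were 0.095 and 0.018, and without hND6 3 they were 0.11 and 0.038. Without mCherry 3 the mt-Nd6 to mt-Cytb difference was 0.17.

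Among plus-strand protein genes, the balance of mt-Co1 and mt-Cytb differed within the mCherry group. The ratio of mt-Co1 to mt-Cytb was 1.76, 1.86 and 1.88 in hND6 libraries, against 2.41, 2.26 and 1.87 in mCherry libraries. mCherry 3 lay with the hND6 libraries, and mCherry 1 and mCherry 2 lay above them. mt-Co1 took 45.5 ± 0.653% of mitochondrial protein reads in hND6 and 48.6 ± 3.65% in mCherry (SD, n = 3 each). mt-Cytb took 17.7% to 19.1% in hND6 and 15.8% to 17.6% in mCherry. It was the only share of the 13 whose groups did not overlap, with hND6 3 at 17.69% and mCherry 3 at 17.64%. Of the 13 shares, 6 are of genes in the near-empty stretch and rest on few or no reads. Of all genes tested, the FPKM of 12.6% did not overlap with hND6 higher and that of 10.2% with hND6 lower. The mt-Co1 to mt-Cytb ratio was chosen after its values were seen, and neither it nor the shares were tested.

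**Figure D4:**
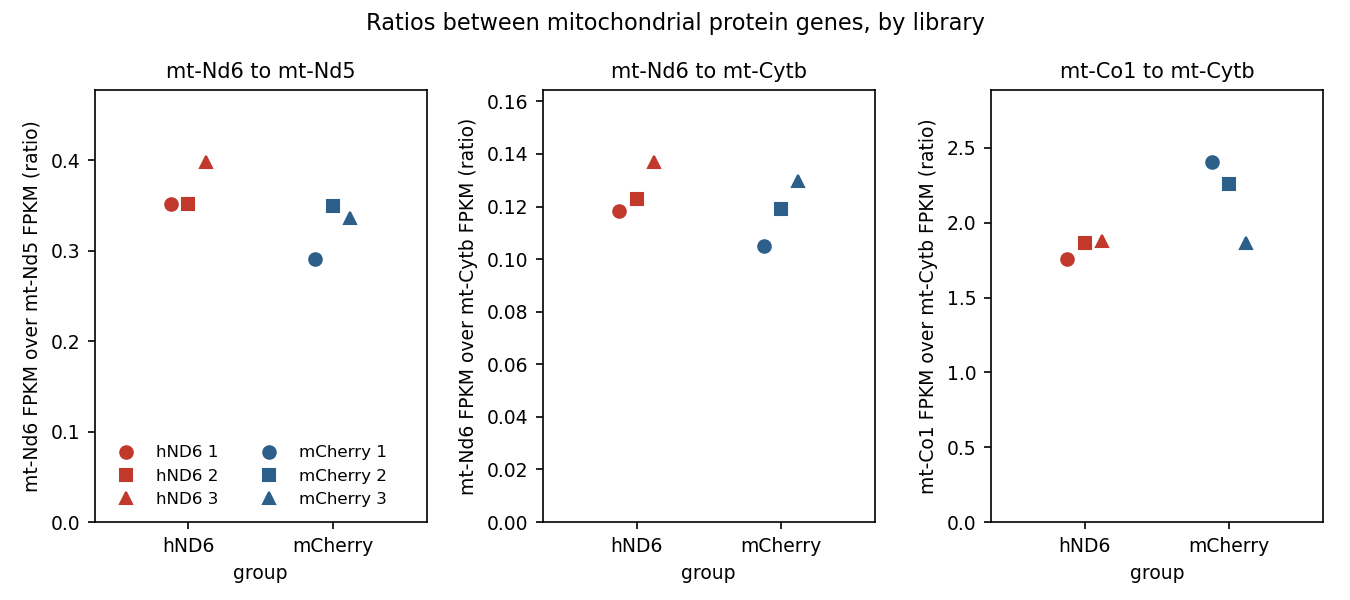
FPKM ratios of mt-Nd6 to mt-Nd5, mt-Nd6 to mt-Cytb and mt-Co1 to mt-Cytb (y axes, linear from 0) in each hND6 and mCherry library (x axis); points are single libraries. The mt-Nd6 to mt-Nd5 ratio was 0.351 to 0.398 in hND6 and 0.291 to 0.350 in mCherry, and the mt-Co1 to mt-Cytb ratio of mCherry 3 (1.87) lay among those of hND6.

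The rRNAs of the mitochondrial ribosome had the largest fold changes of the 17 tested genes, and 2 libraries, hND6 2 and mCherry 2, carried much of them. mt-Rnr1, the 12S rRNA of the small subunit (70 to 1024), stood at 46.0, 251 and 43.6 FPKM in hND6 libraries, against 26.7, 6.51 and 42.3 FPKM in mCherry libraries. mt-Rnr2, the 16S rRNA of the large subunit (1094 to 2675), stood at 30.8, 184 and 29.8 FPKM in hND6 libraries, against 19.5, 4.27 and 20.9 FPKM in mCherry libraries. For both, hND6 2 lay far above and mCherry 2 far below the other libraries. The 4 others ran from 26.7 to 46.0 FPKM for mt-Rnr1 and from 19.5 to 30.8 FPKM for mt-Rnr2. The groups did not overlap for either gene, though for mt-Rnr1 hND6 3 and mCherry 3 were 43.6 and 42.3 FPKM. Of all genes tested, 12.6% had every hND6 value above every mCherry value and 10.2% every value below, and of the 17 mitochondrial genes these 2 did. The log2 fold changes were 1.99 ± 0.90 for mt-Rnr1 and 2.14 ± 0.88 for mt-Rnr2 (SE; limma adjusted p = 0.359 and 0.328). Without hND6 2 they were 1.17 and 1.28, below the 1.46 of the tRNA gene mt-Tt in that fit, and without mCherry 2 they were 1.23 and 1.44.

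Ribosomal RNA was depleted before sequencing, and how far this removed mitochondrial rRNA was not tested. rRNA genes took 0.6997%, 3.78% and 0.807% of mitochondrial reads in hND6 libraries, against 0.577%, 0.172% and 0.557% in mCherry libraries. The 354 nuclear genes annotated as rRNA took 0.00515%, 0.00598% and 0.00636% of assigned reads in hND6 libraries, against 0.00318%, 0.00346% and 0.00503% in mCherry libraries. Those nuclear shares did not overlap between the groups either, and hND6 2 lay between hND6 1 and hND6 3 in them. Whether these nuclear genes reflect how well rRNA was depleted was not tested. hND6 2 was also the library with the most photoreceptor RNA, and the parts of depletion and of photoreceptor RNA in the rRNA values were not tested. The FPKM ratio of mt-Rnr1 to mt-Rnr2 was 1.49, 1.36 and 1.47 in hND6 libraries, against 1.37, 1.52 and 2.03 in mCherry libraries. The groups overlapped, and mCherry 3 stood above the other 5 (exact two-sided permutation p = 0.4, adjusted over the 3 ratios 0.5).

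**Figure D5:**
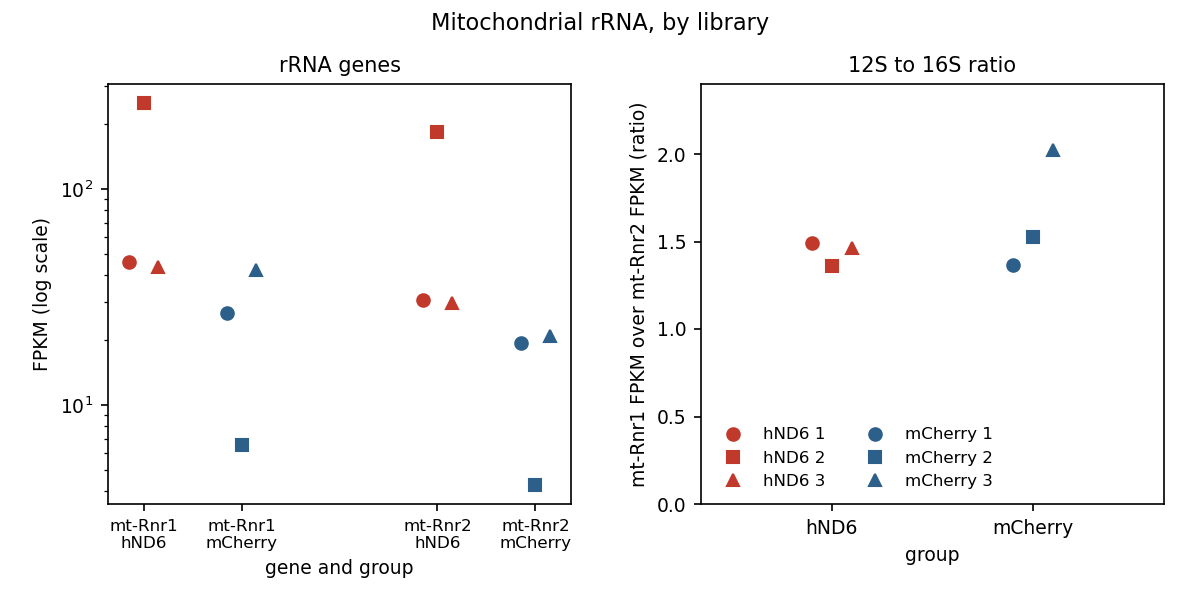
Left, FPKM of mt-Rnr1 and mt-Rnr2 (y axis, log scale) in each hND6 and mCherry library (x axis, gene and group); right, the ratio of mt-Rnr1 to mt-Rnr2 FPKM (y axis, linear from 0) by group. Points are single libraries; hND6 2 lies highest at 251 and 184 FPKM and mCherry 2 lowest at 6.51 and 4.27 FPKM, while their ratios were 1.36 and 1.52, beside 1.37 to 2.03 in the other 4.

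Of the 22 tRNA genes, which span 59 to 75 bases, 13 are listed at 0 in all 6 libraries. Those with reads were 5 of 8 on the minus strand, with 864 reads in all, and 4 of 14 on the plus strand, with 466 reads. Libraries of this kind are not made to capture RNAs as short as mature tRNAs. The 5 tRNA genes with the most reads are printed to show what was counted, 5′ to 3′ on the transcript's strand, with capitals at bases that also belong to a neighbouring gene. mt-Tp (proline) is at chrMT:15356-15422 (minus), mt-Tw (tryptophan) at chrMT:4950-5016 (plus), mt-Tq (glutamine) at chrMT:3772-3842 (minus), mt-Te (glutamic acid) at chrMT:14071-14139 (minus) and mt-Tt (threonine) at chrMT:15289-15355 (plus).
mt-Tp: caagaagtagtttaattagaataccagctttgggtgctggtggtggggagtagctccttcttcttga
mt-Tw: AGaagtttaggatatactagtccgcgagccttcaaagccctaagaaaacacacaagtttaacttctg
mt-Tq: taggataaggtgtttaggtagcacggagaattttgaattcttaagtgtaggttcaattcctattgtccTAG
mt-Te: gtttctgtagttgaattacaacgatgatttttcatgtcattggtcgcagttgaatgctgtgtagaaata
mt-Tt: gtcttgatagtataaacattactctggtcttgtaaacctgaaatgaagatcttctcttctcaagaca
mt-Tw shares its first 2 bases with the end of mt-Nd2, and mt-Tq its last 3 with mt-Ti on the other strand. mt-Tt and mt-Tp lie next to each other on opposite strands, after mt-Cytb.

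Reads of these tRNA genes were few and scattered. The reads given here are not scaled to library size, whereas the fold changes come from FPKM. mt-Tp had 103, 91 and 85 reads in hND6 libraries, against 97, 32 and 72 reads in mCherry libraries. mt-Tw had 56, 61 and 43 reads in hND6 libraries, against 79, 23 and 54 in mCherry libraries. mt-Tq had 33, 38 and 34 reads in hND6 libraries, against 50, 20 and 40 in mCherry libraries. In all 3, mCherry 2 was the lowest and the groups overlapped. By FPKM, hND6 2 was the highest library for mt-Tp (68.7 FPKM), mt-Tw (46.0 FPKM) and mt-Tq (27.1 FPKM). mt-Te, which follows mt-Nd6 on the genome, had 5, 17 and 33 reads in hND6 libraries, against 36, 26 and 14 in mCherry libraries. mt-Tt had 35, 18 and 28 reads in hND6 libraries, against 6, 9 and 29 in mCherry libraries. For mt-Tt the hND6 libraries and mCherry 3 stood together above the other 2. Its log2 fold change was 1.34 ± 0.59 (SE; limma adjusted p = 0.346), and without mCherry 3 it was 2.05 with an adjusted p of 0.0437. Without mCherry 1 it was 0.89 with an adjusted p of 0.518. mt-Tp had a log2 fold change of 0.88, mt-Tw 0.46, mt-Tq 0.30, mt-Te -0.39, mt-Ty (tyrosine) -0.23 and mt-Tm (methionine) 0.04, with limma adjusted p from 0.407 to 0.978. Without mCherry 2 mt-Tp was at 0.34. Signs of mt-Te, mt-Ty, mt-Tq, mt-Tw and mt-Tm turned when single libraries were left out. mt-Ty had 35 reads and mt-Tm 21 over all 6 libraries, mt-Ti (isoleucine) had 4 reads and mt-Ta (alanine) 3, all of them in hND6 libraries.

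A list of nuclear genes for mitochondrial RNA, from its transcription to its decay, showed no shift as a group. The list also holds enzymes that modify tRNAs and some genes that copy mitochondrial DNA. Of its 45 genes, all 45 were found and 44 tested, with 21 higher and 23 lower in hND6. Their median log2 fold change was -0.02, beside -0.01 for all genes tested. None passed in limma, 2 of the 44 were at an unadjusted p under 0.05 beside 15.2% of all genes tested, and the smallest adjusted p was 0.177. Groups did not overlap for 4 higher and 4 lower genes of the 44, beside 12.6% and 10.2% of all genes tested. Of smallest p was Hsd17b10, a subunit of the RNase P that cuts mitochondrial tRNAs at their 5′ ends. It stood at 19.9, 21.3 and 19.7 FPKM in hND6 libraries, against 12.9, 14.8 and 16.1 FPKM in mCherry libraries (log2 fold change 0.46 ± 0.10 SE, limma adjusted p = 0.177). Ptcd3, a pentatricopeptide-repeat protein of the small mitochondrial ribosomal subunit, stood at 14.7, 14.2 and 13.4 FPKM in hND6 libraries, against 17.9, 18.3 and 17.2 FPKM in mCherry libraries. Its log2 fold change was -0.32 ± 0.08 (SE, limma adjusted p = 0.179). Trmt5, a tRNA methyltransferase, had a log2 fold change of -0.26, and Fastkd3, of the FASTK family of mitochondrial RNA-binding proteins, one of -0.27 (adjusted p = 0.335 and 0.339). Hsd17b10 lay higher in hND6 and the other 3 lower.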

How the data were processed

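RNA of mouse optic nerve was measured in 3 hND6 and 3 mCherry libraries, prepared from rRNA-depleted RNA with a stranded TruSeq kit, per the labels. The authors deposited FPKM per gene, per the labels, with 1 column per library and no pooling; 6 of 6 single-library tables matched the combined table. Per the submitters' processing notes, without roles, tools were CASAVA 1.4, Trim Galore, STAR and HTSeq and builds mm10 and GRCm38. Multiplied by exon length, at least 99.9954% of values per library fell within 0.1 read of a whole number of reads, which recovered the reads.

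Genes averaging 0.5 FPKM or more were tested on log2(FPKM + 0.5) with limma 3.58.1 in R 4.3.3 (moderated test with intensity trend, Benjamini-Hochberg over all genes, threshold 0.05), checked on simulated data. Fold changes on this scale understate low genes. Within-library ratios were compared by exact permutation. Mitochondrial transcripts of GENCODE M21 were searched against nuclear ones with BLAST+ 2.17.0, keeping matches of at least 40 bases and 95% identity. Named are all mitochondrial genes, and of the RNA machinery list members past the threshold and the 4 of smallest p. The members and lists were chosen with earlier results of these data known. Alternatives were other pseudocounts, filters, scalings, the replicate block and leaving out libraries; limma's voom on recovered reads and leaving out hND6 2 with mCherry 3 were added after the data were seen.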

Additional observations from a re-analysis of the deposited data

How the results depend on the processing

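No mitochondrial gene passed under 17 of the 18 alternatives. Without mCherry 3, 2 of 17 tested did (mt-Nd6 at 0.91 and mt-Tt at 2.05, limma adjusted p = 0.0437 each). In that fit 116 of all 16035 genes tested passed higher and 15 lower, and 3561 were at an unadjusted p under 0.05. Leaving out single libraries, the number of mitochondrial genes past the threshold ran from 0 to 2, genes higher in hND6 from 0 (without mCherry 2) to 116 (without mCherry 3), genes lower from 0 to 15, mt-Nd6 from 0.39 to 0.91 and the median of the mitochondrial genes from 0.27 to 0.67. Genes higher numbered 0 with no filter on low values, with the replicate block, with voom and without hND6 2 and mCherry 3 together. With no filter the median of the 37 mitochondrial genes was 0.037, and 14 of them are at 0; with quantile normalisation that of the 17 was 0.14. Correlations of deviations between same-numbered libraries were -0.42, 0.36 and -0.20 for numbers 1, 2 and 3. hND6 2 correlated best with mCherry 2, whereas hND6 1 did so with mCherry 3 (0.56) and hND6 3 with mCherry 1 (0.23). With 3 libraries per group, these values cannot decide whether same-numbered libraries belong together. With the replicate block mt-Nd6 was at 0.59 (limma adjusted p = 0.501). The exact sign-flip p was 0.25 for both mt-Nd6 ratios, the smallest that 3 pairs of libraries allow, and 0.5 for the rRNA ratio. Signs turned for mt-Co1 (-0.12), mt-Nd1 (-0.065) and mt-Nd4 (-0.042) with quantile normalisation, and for mt-Tm on the TPM scale (-0.065) and without hND6 2 and mCherry 3 (-0.41). Over the fits without single libraries, signs turned for mt-Te (-1.05 to 0.51), mt-Ty (-0.71 to 0.56), mt-Tm (-0.42 to 0.49), mt-Tq (-0.15 to 0.58) and mt-Tw (-0.11 to 0.82); without hND6 2 and mCherry 3 mt-Ty was at -0.81. The cause was not tested. The edgeR and DESeq2 tests planned for recovered reads were not run, since the deposited unit is FPKM; voom took their place. The log2 differences of the ratios ran from 0.095 to 0.23 (mt-Nd6 to mt-Nd5), 0.018 to 0.17 (mt-Nd6 to mt-Cytb) and -0.29 to -0.0060 (mt-Rnr1 to mt-Rnr2, nearest 0 without mCherry 3) without single libraries. The tRNA genes rest on 1330 reads in all.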

Other observations

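Nuclear copies of lower identity lay outside chromosome 1. On chromosome 2, Gm13340 matched the whole of mt-Co1 at 97.6% identity, Gm13341 the whole of mt-Co2 at 95.9%, and Gm13339 matched 49.1% of mt-Nd2 at 96.7%. On chromosome 13, Gm4076 matched 52.3% of mt-Nd5 at 95.2%. Gm13340 stood between 1.95 and 3.69 FPKM over the 6 libraries, Gm13341 between 0.135 and 0.405 FPKM, Gm4076 at 0.121 FPKM or less, and Gm13339 was listed at 0 in all 6. The genes mt-Nd1, mt-Nd6 and mt-Cytb, the 2 rRNA genes and the 22 tRNA genes had no nuclear transcript of at least 95% identity over at least 40 bases. Nuclear copies outside annotated transcripts were not searched. The 3 tRNA genes inside the near-empty stretch were all listed at 0, beside 13 of all 22.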
